A study of Mus musculus with 14 samples.

Results

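The data describe the annotated mouse miRNA genes of embryonic stem cells (ESCs) outside the miR-290 to miR-295 cluster and outside 17 further loci left out by name. Members were found by symbol: every gene whose symbol begins with Mir and a digit, or with Mirlet, and every pile-up site or RNA-seq row that names such a gene. This gave 61 of the 3919 pile-up sites in the table of the Drosha experiment, which lie at 59 miRNA genes, and 55 of the 4666 sites in the table of the Dicer experiment, which lie at 51. Of these, 47 sites are in both tables, and 63 miRNA genes have a site in at least 1 of them. The RNA-seq table added 139 of 22376 rows, of which 9 are host transcripts (symbols ending in hg) and 130 are miRNA genes.

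The study used Degradome-seq, in which a linker is ligated to polyadenylated RNA that carries a 5′ monophosphate, so that reads start at the exposed ends that cleavage leaves. In the first experiment, Drosha fl/fl Gt(ROSA)26SorCreERT2 ESCs without treatment (2 libraries) were compared with the same line given 100 nM 4-hydroxytamoxifen for 72 h and then kept 48 h without it (2 libraries). In the second, Dicer fl/fl ESCs transduced with a GFP retrovirus (2 libraries) were compared with Dicer fl/fl ESCs transduced with GFP-Cre (2 libraries); GFP+ cells were sorted on day 3 and kept for 2 further days. All ESCs carried the floxed allele in both arms and grew on Mitomycin C-inactivated mouse embryonic fibroblasts, whose Drosha and Dicer genes the treatments were not aimed at. The RNA-seq table covers 3 untreated and 3 4-hydroxytamoxifen-treated libraries of the Drosha line, and only its mean level over all 6 was used. In each experiment 1 floxed line was used, the tamoxifen and retroviral arms differ from their controls in the agent as well as in the deletion, and nothing states that replicates came from separate cultures, so p-values measure the spread between these libraries, which may be technical.

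A canonical miRNA begins as a stem-loop in a long primary transcript. The nuclear RNase III enzyme Drosha, with its partner Dgcr8, cuts the stem and releases a short hairpin, the pre-miRNA, from both flanks. The flank on the 3′ side keeps the poly(A) tail and gains a 5′ monophosphate, and it is this fragment that Degradome-seq records at the base after the 3p arm. Dicer then cuts the exported hairpin near its loop into a duplex, and 1 strand is loaded into an Argonaute protein, where bases 2 to 8, the seed, select the target RNAs.

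The sites that carry the results lie where the hairpin ends. The junctions below are from the reference genome GRCm38.p6, read on the strand of the gene, and the capitals start at the base where the Degradome-seq reads start. The first 6 were among the sites that fell furthest or had the most reads, and the next 6 were among the sites that were not called decreased.
Mir33, chr15:82198176-82198203 (+): cacagtgcatcaCGGAGGCCTGCCCTGA
Mir31, chr4:88910561-88910588 (-): catattgccatcTTTCCTGTCTGACAGC
Mir351, chrX:53053260-53053287 (-): gcgcctgggaacTGGAGAAGAGTGTTAA
Mir19b-1, chr14:115044369-115044396 (+): atgcaaaactgaCTGTGGTGGTGAAAAG
Mir32, chr4:56895216-56895243 (-): gtgtgtgatattTTCACATGAGTGCATG
Mir296, chr2:174267042-174267069 (-): tggaggctctccTGAAGGTGTCCGCAGA
Mir34b, chr9:51103558-51103585 (-): tccactgccatcAAAACAAGGCACAGCA
Mir98, chrX:151913296-151913323 (+): ttactactttccTTGGTGTGTGGCATAT
Mir450-1, chrX:53048155-53048182 (-): ttttgcataaatAGCTTTGTGTCAATAC
Mir196a-1, chr11:96265235-96265262 (+): aaaccacctgatTCATGGCAGTTACTGC
Mir677, chr10:128085278-128085305 (+): gagtgcttgagcCTTCAGTGATGATTAG
Mir451a, chr11:78073216-78073243 (+): gtaacggttctcTTGCTGCTCCCACAAA

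Several members share a seed, and miRNAs with the same seed are known to share many of their targets. The mature sequences are those of RefSeq for GRCm38.p6, with the seed in capitals, and they are grouped by seed because members of a group did not always change alike. The first 4 carry GAGGUAG, the next 2 AUUGCAC, the next 2 GUGCAAA, the next 3 CCCUGAG, the next 2 GCAGCAU, the next 2 CAGUGCA and the last 2 GGCAGUG.
let-7a-5p (Mirlet7a-1): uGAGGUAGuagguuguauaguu
let-7f-5p (Mirlet7f-1): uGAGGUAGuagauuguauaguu
let-7g-5p (Mirlet7g): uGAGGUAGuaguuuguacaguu
miR-98-5p (Mir98): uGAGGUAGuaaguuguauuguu
miR-32-5p (Mir32): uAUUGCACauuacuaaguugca
miR-92a-3p (Mir92-1 and Mir92-2): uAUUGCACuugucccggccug
miR-19a-3p (Mir19a): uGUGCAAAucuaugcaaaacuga
miR-19b-3p (Mir19b-1 and Mir19b-2): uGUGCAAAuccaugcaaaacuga
miR-125a-5p (Mir125a): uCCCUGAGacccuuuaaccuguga
miR-125b-5p (Mir125b-1): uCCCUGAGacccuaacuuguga
miR-351-5p (Mir351): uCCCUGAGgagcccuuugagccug
miR-103-3p (Mir103-2): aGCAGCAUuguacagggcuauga
miR-107-3p (Mir107): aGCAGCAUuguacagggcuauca
miR-148a-3p (Mir148a): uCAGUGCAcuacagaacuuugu
miR-148b-3p (Mir148b): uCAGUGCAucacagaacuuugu
miR-34a-5p (Mir34a): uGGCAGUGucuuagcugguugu
miR-34b-5p (Mir34b): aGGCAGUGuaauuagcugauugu

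The 8 Degradome-seq libraries held 28682300 to 34547609 mapped reads, so that 3 reads correspond to 0.0868 to 0.105 RPM, the unit of the tables (read starts scaled to the mapped reads of the library). The share of mapped reads that aligned to several places was 37.6% and 41.8% in the Drosha-line controls and 26.9% and 28.7% in the Drosha-deficient libraries. In the Dicer line it was 38.4% and 38.8% in the GFP controls and 31.7% and 33.5% in the Dicer-deficient libraries. All 10 ESC markers examined were present in the RNA-seq table, at authors' mean levels of 6.14 to 10.2 log2 CPM (median 8.78), and so were all 10 fibroblast markers, at -0.63 to 6.6 log2 CPM (median 3.04). The share of each miRNA's reads that came from the fibroblasts was not tested. Because the RNA-seq values are pooled, the loss of Drosha RNA could not be checked library by library. RNA-seq was not made of the Dicer line, so the loss of Dicer1 RNA was not checked here. By qRT-PCR the authors reported a loss of canonical miRNAs after either deletion.

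Most member sites lay at the position that Drosha leaves. Of the 61 sites in the Drosha table, 49 could be placed against an annotated 3p arm, and 47 of these started within 3 bases of its last base: 31 at the next base, 8 at the second, 3 at the third and 5 on the last base itself. In the Dicer table, 41 of 45 sites did so, 29 of them at the next base. The authors' classifier, which chose the pile-up sites, was trained on known Drosha cut sites of annotated miRNAs, so this position is in part what the sites were chosen for. The sites on the last base of the arm were those of Mirlet7a-1, Mirlet7f-1, Mir98, Mir33 and Mir136. The sites of Mir101b lay 4 and 5 bases past the arm, which is annotated at only 19 bases. Counted from the first base of the 3p arm they lay at 22 and 23, where those of Mir101a lay at 21 and 22.

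**Figure D1:**
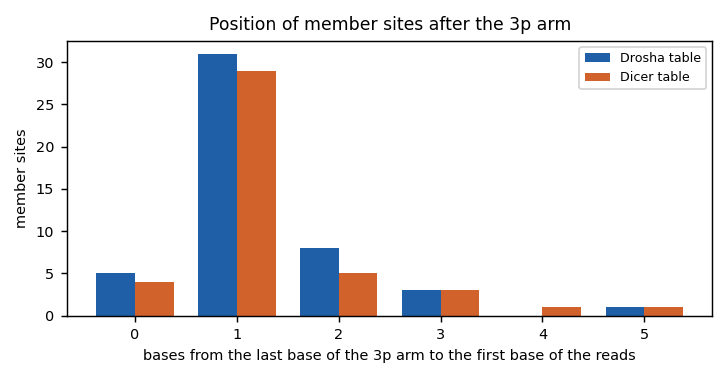
Number of member sites (vertical axis) by the distance in bases from the last base of the annotated 3p arm to the first base of the reads (horizontal axis), for the Drosha table (blue, 49 sites placed) and the Dicer table (orange, 45 sites placed). The highest bar stands at 1 base in both tables, with 31 and 29 sites. The sites at -62 and -70, on the first base of the 5p arm and on the base before it, are not drawn.

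A few sites lay elsewhere on the hairpin. At Mir677, in an intron of Atp5b and also annotated as a small nucleolar RNA, reads began at -70 relative to the last base of the 3p arm, which is the base before the annotated 5p arm. A second site at Mir351, found only in the Dicer table, lay at -62 relative to the last base of its 3p arm, on the first base of the 5p arm. Mir451a has no 3p arm, since its short hairpin is cut by Argonaute 2 and not by Dicer, and its reads began past the end of the mature miRNA. The sites of Mir5121 lay at the first base of the mature sequence and the base before it, within the small nucleolar RNA Snord33, which Rpl13a holds. The first 30 bases of the reads occurred once in the genome at every member site except Mir3473d, where they had 18 copies, so that its reads cannot be assigned to 1 locus.

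The flank beyond the cut often held the CNNC motif, a known feature of primary miRNAs (C, any 2 bases, C). With positions counted from 1 at the first base of the reads, the first C of CNNC lay at positions 16 to 18 on the read strand at 38 of 61 member sites in the Drosha table (62.3%) and at 32 of 55 in the Dicer table (58.2%). Among sites that name no miRNA the share was 18.3% and 14.8%. Of the 38 members with the motif in the Drosha experiment, 27 were decreased after Drosha deletion, with a median log2 difference of -1.96, and of the 23 without it 15 were decreased, with a median of -1.89.

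The question of the first comparison was which cut ends depend on Drosha. After Drosha deletion, reads fell at most miRNA junctions: 42 of the 61 member sites (68.9%) decreased and 0 increased, where a decrease means a false discovery rate (FDR) under 0.05 and a log2 difference below -1.5 in limma on log2(RPM + 0.1). Over all 3919 sites, 37.6% decreased and 9.57% increased by the same rule, so decreases were the more frequent call there too. The authors describe choosing sites in both control libraries. The mean control level over all sites began at 0 RPM, so that choice cannot hold for every site. Over the member sites it began at 0.670 RPM. The median member site kept 23.2% of its control RPM, and the median log2 difference was -1.95, against -0.93 over all sites. The difference was below 0 at 60 member sites and above 0 at 1, and 70.8% of all sites lay below 0. In 52 of the 61 member sites (85.2%) both Drosha-deficient libraries lay below both controls, against 59.9% of all sites. The ranges of the other 9 overlapped, and no member had both deficient libraries above both controls. The 42 decreased sites belong to 41 of the 59 miRNA genes, since the neighbouring sites of Mir101a share a hairpin. At an unadjusted p under 0.05 there were 48 lower and 0 higher member sites (65.7% of all sites passed in either direction). With edgeR on whole reads 40 member sites decreased and 0 increased, beside 1525 decreased and 384 increased of all 3919 sites. This edgeR run scaled libraries to mapped reads, as limma did, so it does not check the scaling. The authors' edgeR used trimmed mean of M values scaling instead.

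**Figure D2:**
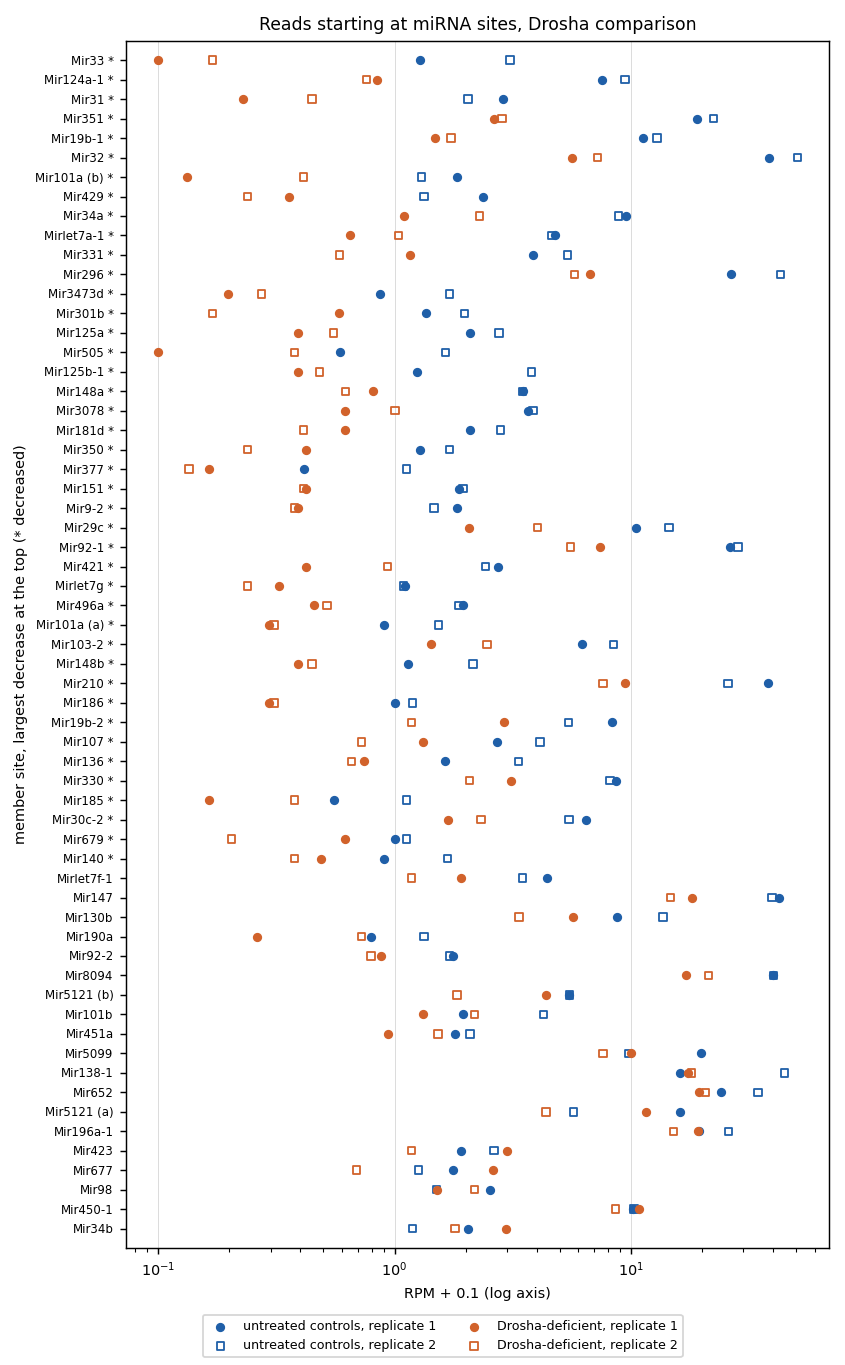
RPM + 0.1 on a log axis (horizontal) of each of the 61 member sites (vertical) in the 2 untreated (blue) and 2 Drosha-deficient (orange) libraries; circles are replicate 1 and squares replicate 2. Sites are ordered by their log2 difference, stars mark the 42 that decreased, and (a) and (b) are neighbouring sites of 1 hairpin. Blue and orange points are apart in 52 sites and overlap in 9, most of them near the bottom.

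The extent of the decrease depended on how the libraries were scaled. When each library was centred on the median of all sites, 24 member sites (871 of all sites) decreased and the member median became -1.36, beside -0.34 over all sites; the share of decreases among all calls moved from 79.7% to 59.1%. With library sizes from uniquely mapped reads, 46 member sites and 1707 of all 3919 sites decreased. Without control replicate 2, 28 member sites and 1249 of all sites decreased, and 0 member sites increased under any of the alternatives.

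The highest control levels of the decreased member sites were at Mir32 and Mir296. Mir32, in an intron of Tmem245, had 38.3 and 50.7 RPM in the control libraries and 5.52 and 7.12 RPM in the Drosha-deficient libraries, a log2 difference of -2.79 ± 0.34 (SE, n = 2 per group, limma FDR 1.31e-05). Its product shares the seed AUUGCAC with miR-92a. Mir296, an miRNA of pluripotent cells, had 26.5 and 43.0 RPM in controls and 6.65 and 5.66 RPM after deletion (-2.44 ± 0.35, limma FDR 3.56e-05). Both deficient libraries were far below both controls at these sites.

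Mir210, known as the hypoxia-induced miRNA, had 38 and 25.7 RPM in controls and 9.32 and 7.54 RPM in Drosha-deficient cells (log2 difference -1.89 ± 0.35, n = 2 per group, limma FDR 0.000243). Centred on the median of all sites its difference was -1.29, short of the fold threshold. Mir92-1, in an exon of the host transcript Mir17hg, had 26.3 and 28.4 RPM in controls and 7.32 and 5.46 RPM after deletion (-2.09 ± 0.34, limma FDR 9.49e-05). Mir351 at chrX:53053275, whose product has the seed of miR-125, had 19 and 22.3 RPM in controls and 2.55 and 2.75 RPM after deletion (-2.91 ± 0.35, limma FDR 1.31e-05). At these 3 sites both deficient libraries lay well below both controls.

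The other 5 of the 10 highest control sites were not called decreased. Mir147, in an exon of AA467197 and known from inflamed macrophages, had 42.5 and 39.5 RPM in controls and 18 and 14.7 RPM in Drosha-deficient cells (log2 difference -1.33 ± 0.33, n = 2 per group, limma FDR 0.00215). Mir8094, in an intron of Ddx39b, had 39.7 and 40.03 RPM in controls and 17.1 and 21.2 RPM after deletion (-1.06 ± 0.32, limma FDR 0.00902). Both passed the FDR but not the fold threshold, and their groups did not overlap. The FDR was passed without the fold threshold at 2 further member sites, Mirlet7f-1 (-1.39) and Mir130b (-1.33).

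Mir138-1, known from neurons, had 16.1 and 44.6 RPM in controls and 17.4 and 18 RPM in Drosha-deficient cells, so that only control replicate 2 stood above the deficient libraries (log2 difference -0.60 ± 0.41, n = 2 per group, limma FDR 0.213). Without that library the difference was 0.14. Mir652, in an intron of Tmem164, had 23.9 and 34.5 RPM in controls and 19.3 and 20.6 RPM after deletion (-0.52 ± 0.33, limma FDR 0.182). Mir196a-1, which lies within the Hoxb cluster, had 19.4 and 25.8 RPM in controls and 19.2 and 15.1 RPM after deletion (-0.39 ± 0.34, limma FDR 0.326). At Mir652 and Mir196a-1 the deficient libraries were the lower ones, by less than the fold threshold, and centring on the median of all sites turned the differences to 0.07 and 0.20.

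The largest decreases among member sites with at least 0.5 RPM in controls were at Mir33, Mir124a-1, Mir31, Mir351 and Mir19b-1. Mir33 lies in an intron of Srebf2, the gene of a regulator of cholesterol synthesis, and miR-33 itself is known to limit cholesterol export. It had 1.19 and 2.98 RPM in controls and 0 and 0.0695 RPM in Drosha-deficient cells (log2 difference -3.93 ± 0.64, n = 2 per group, limma FDR 9.15e-05). This was 121 reads against 2, or 1.60% of the control level with an exact 95% counting interval of 0.192% to 5.91%, which covers counting error only. The only other member with so few reads was Mir377, with 39 reads in controls and 3 after deletion (7.45% of control, 1.47% to 23.4%).

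Mir124a-1, a gene of the neuronal miR-124, had 7.43 and 9.34 RPM in controls and 0.742 and 0.660 RPM after deletion (log2 difference -3.40 ± 0.40, n = 2 per group, limma FDR 1.29e-05). Mir31 had 2.79 and 1.95 RPM in controls and 0.129 and 0.348 RPM after deletion (-2.93 ± 0.53, limma FDR 0.000235). Mir19b-1, a member of the miR-17-92 cluster that is known to promote proliferation, had 11.1 and 12.8 RPM in controls and 1.39 and 1.63 RPM after deletion (-2.91 ± 0.37, limma FDR 1.76e-05). The deficient libraries kept 8.36%, 10.1% and 12.6% of the control RPM at these 3 sites.

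The mean was not lower after deletion at 2 member sites. Mir34b, which belongs to the p53-responsive miR-34 family, had 1.95 and 1.09 RPM in controls and 2.87 and 1.70 RPM in Drosha-deficient cells (log2 difference 0.56 ± 0.46, n = 2 per group, limma FDR 0.295). Mir677 had 1.67 and 1.16 RPM in controls and 2.52 and 0.591 RPM after deletion, and its log2 difference was -0.15 ± 0.56 (limma FDR 0.825) because the deficient libraries lay on either side of the controls. The groups overlapped at both sites. The direction at Mir677 turned positive when the libraries were centred (0.44), in edgeR (0.14), without control replicate 1 (0.09) and without Drosha-deficient replicate 2 (0.81).

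The remaining member sites with overlapping groups were Mir450-1, Mir98, Mir423, Mir5099, Mir101b and the site of Mir5121 at 45126945. Mir450-1, from an X-linked cluster, had 10.1 and 10.2 RPM in controls and 10.7 and 8.51 RPM after deletion, 94.3% of the control mean. Its neighbour Mir351 on the same strand kept 12.8%. Mir98 had 2.44 and 1.40 RPM in controls and 1.42 and 2.09 RPM after deletion, 91.2% of the control mean.

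Within families the sites moved to different extents. Of the 4 let-7 and miR-98 member sites, which share the seed GAGGUAG and whose maturation Lin28 is known to block in ESCs, 2 decreased, Mirlet7a-1 (-2.52 ± 0.43) and Mirlet7g (-1.98 ± 0.58). Mirlet7f-1 differed by -1.39 ± 0.42 and Mir98 by -0.10 ± 0.45. Mirlet7a-1 and Mirlet7f-1 lie on 1 transcript, 6720427I07Rik. They kept 16.2% and 37.4% of their control RPM.

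Of the 4 member sites of the miR-17-92 and miR-106a-363 clusters, 3 decreased: Mir19b-1, Mir92-1 and Mir19b-2 (-1.86 ± 0.45). The fourth, Mir92-2, makes the same mature miRNA as Mir92-1. It had 1.67 and 1.61 RPM in controls and 0.774 and 0.695 RPM after deletion (-1.06 ± 0.46, limma FDR 0.0552), so both deficient libraries were lower but the test was not passed.

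All member sites of several small families decreased in limma, where 37.6% of all sites decreased. These were Mir148a and Mir148b (median log2 difference -2.10), Mir103-2 and Mir107 (median -1.86), which lie in introns of the paralogues Pank2 and Pank1, and Mir125a and Mir125b-1 (median -2.35). The brain miRNA sites Mir124a-1 and Mir9-2 did so too (median -2.75). The single sites of miR-29 (Mir29c, -2.10), miR-30 (Mir30c-2, -1.59), miR-181 (Mir181d, -2.26) and the epithelial miR-200 family (Mir429, -2.60) each decreased. After centring on the median of all sites, Mir148b, Mir103-2, Mir107 and Mir30c-2 were no longer called, while the other sites of this paragraph still were. Mirlet7g and Mir19b-2 were also not called after centring.

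In the miR-34 family Mir34a decreased (-2.53 ± 0.42) and Mir34b did not. Mir34a had 9.45 and 8.76 RPM in controls and 1.00 and 2.19 RPM after deletion. Of the miR-130 and miR-301 pair, Mir301b decreased (-2.38) and Mir130b passed only the FDR. In the miR-101 family both neighbouring sites of Mir101a decreased, and Mir101b had -0.76 ± 0.47 (limma FDR 0.167). The Mir101a site at 101346955 was not called after centring.

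All 4 member sites of the imprinted Dlk1-Dio3 locus on chromosome 12, Mir136, Mir377, Mir496a and Mir679, decreased, with a median log2 difference of -1.86. Their controls were low, between 0.314 and 3.25 RPM. Among all sites with a mean over the 4 libraries at or below 2 RPM, 51.9% decreased. After centring, or with a pseudocount of 0.5 RPM, these 4 sites were no longer called. In edgeR Mir679 was not called either, while Mir136, Mir377 and Mir496a were. The authors name Mir5099 and Mir677 as independent of Drosha, and Mir5121 was grouped with them here. Of their 4 member sites 0 decreased in limma or increased. The differences were -0.67 at Mir5099, -0.15 at Mir677 and -0.44 and -0.95 at the 2 sites of Mir5121, with a median of -0.55. Among these 4 the Mir5121 site at 45126946 had a limma FDR of 0.0645, and Mir451a, whose hairpin Drosha is known to cut, had -0.70 ± 0.46 (limma FDR 0.193). No member site was found for the miR-302 cluster, the miR-15 family or the miR-182, miR-183 and miR-96 cluster.

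The remaining 11 decreased sites were those of Mir140, Mir151, Mir185, Mir186, Mir330, Mir331, Mir350, Mir421, Mir505, Mir3078 and Mir3473d. Their log2 differences ran from -1.52 at Mir140, within Wwp2 and known from cartilage, to -2.47 at Mir331. Their mean control levels ran from 0.740 RPM at Mir185 to 8.31 RPM at Mir330. Mir505 had 0.488 and 1.54 RPM in controls and 0 and 0.278 RPM after deletion, and so was the only decreased site besides Mir33 with 0 reads in a library. Mir190a, in an intron of Tln2, had 0.697 and 1.23 RPM in controls and 0.161 and 0.626 RPM after deletion, and was not called (-1.24 ± 0.61, limma FDR 0.0850).

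The decreased member sites were also counted by position and host, as a description, where 37.6% of all sites decreased. The share of all sites within each class was not counted. A site is called exonic here if any annotated transcript of the host has an exon there, even where other transcripts have an intron. Of the 47 sites just past a 3p arm 36 decreased, of the 2 placed elsewhere (Mir677 and Mir101b) 0, and of the 12 with no 3p arm listed 6. Of the 25 sites within introns of protein-coding genes 17 decreased (median -1.91), of the 5 in exons of protein-coding genes 2 (median -1.33), of the 16 in exons of noncoding hosts 14 (median -2.23), of the 2 in introns of noncoding hosts 2 (median -2.01) and of the 13 with no other gene on their strand 7 (median -1.59). Among the 30 member sites with a mean over the 4 libraries above 2 RPM 17 decreased, against 28.6% of all sites above that level, and among the 31 at or below it 25 decreased, against 51.9% of all sites.

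**Figure D3:**
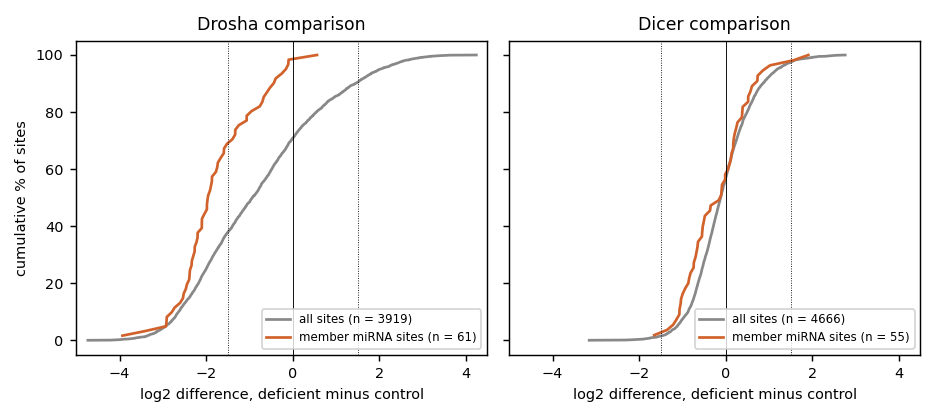
Cumulative percentage of sites (vertical axis) at or below each log2 difference between deficient and control libraries (horizontal axis), for the member miRNA sites (orange) and all sites of the table (grey), in the Drosha comparison (left) and the Dicer comparison (right); dotted lines mark -1.5 and 1.5. On the left the members' median is -1.95 against -0.93 for all sites, and on the right it is -0.10 against -0.12.

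The Dicer experiment asked which of the cut ends change when the later enzyme is removed. In limma without a replicate block 0 of the 55 member sites were called in either direction, as were 0% of all 4666 sites, and edgeR on whole reads also called 0. That edgeR run scaled libraries to mapped reads, as limma did here. The authors, with edgeR after trimmed mean of M values scaling, reported sites that decreased in Dicer-deficient cells. The smallest limma FDR was 0.465. At an unadjusted p under 0.05 there were 5 lower and 2 higher member sites, together 7 of 55, against 9.84% of all sites. The median member site had 89.2% of its control RPM, with a median log2 difference of -0.10 (-0.12 over all sites), and 32 of the 55 lay below 0 against 56.6% of all sites. Both Dicer-deficient libraries lay below both controls at 23 sites (27.4% of all sites did so) and above them at 11 (16.8% of all sites), and the groups overlapped at 21.

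**Figure D4:**
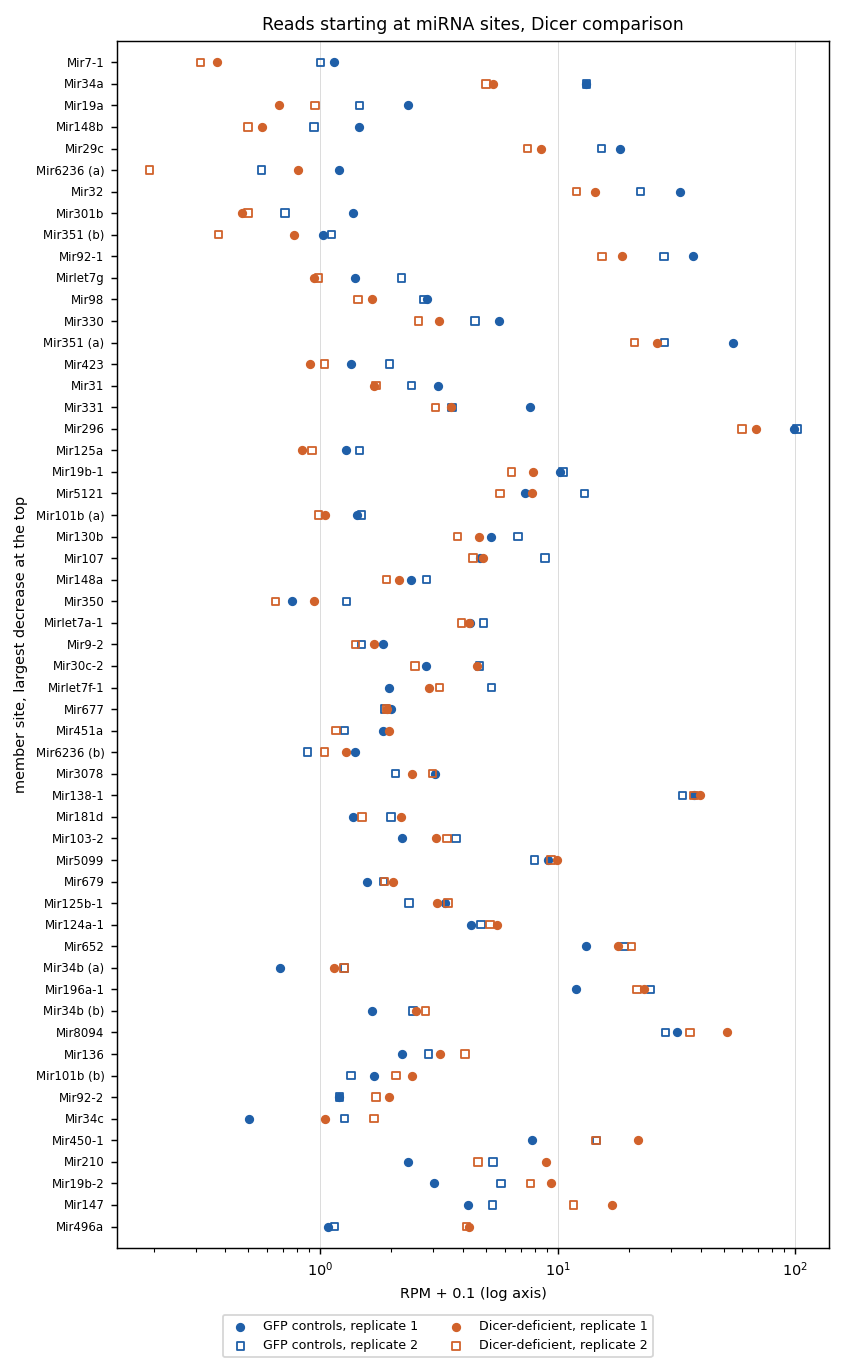
RPM + 0.1 on a log axis (horizontal) of each of the 55 member sites (vertical) in the 2 GFP control (blue) and 2 Dicer-deficient (orange) libraries; circles are replicate 1 and squares replicate 2, sites are ordered by their log2 difference, and (a) and (b) are sites of 1 hairpin. Orange points lie left of blue at 23 sites and right of blue at 11, with no site called in limma without a replicate block.

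The highest control levels of the member sites in this line were at Mir296. It had 98.8 and 102 RPM in GFP controls and 68.3 and 59.6 RPM in Dicer-deficient cells (log2 difference -0.65 ± 0.28, n = 2 per group, limma FDR 0.507). Mir351 at chrX:53053275 had 54.8 and 28.1 RPM in controls and 26.1 and 21.0 RPM after deletion (-0.74 ± 0.40, limma FDR 0.560). Mir92-1 had 37.2 and 27.9 RPM in controls and 18.5 and 15.3 RPM after deletion (-0.94 ± 0.32, limma FDR 0.469). At all 3 the deficient libraries were the lower ones.

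Mir138-1 and Mir8094, also among the 5 highest, were not lower. Mir138-1 had 37.4 and 33.4 RPM in controls and 39.6 and 37.4 RPM in Dicer-deficient cells (log2 difference 0.12 ± 0.29, n = 2 per group, limma FDR 0.889). With library sizes from uniquely mapped reads its difference was -0.01. Mir8094 had 31.8 and 28.4 RPM in controls and 51.6 and 36.0 RPM after deletion (0.52 ± 0.32, limma FDR 0.574).

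The smallest p-values among the lower sites were at Mir34a, Mir29c and Mir32. Mir34a had 13.1 RPM in both controls and 5.24 and 4.89 RPM in Dicer-deficient cells (log2 difference -1.36 ± 0.32, n = 2 per group, limma FDR 0.465). Mir29c, whose product is known to repress collagens, had 18.2 and 15.2 RPM in controls and 8.38 and 7.39 RPM after deletion (-1.07 ± 0.32, limma FDR 0.469). Mir32 had 32.5 and 22.3 RPM in controls and 14.3 and 11.9 RPM after deletion (-1.04 ± 0.34, limma FDR 0.469). The groups were apart at each of them, at 38.6% to 47.7% of the control level.

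Among the higher sites the smallest p-values were at Mir496a, Mir147 and Mir19b-2. Mir496a, in an intron of Mirg at the Dlk1-Dio3 locus, had 0.984 and 1.05 RPM in controls and 4.16 and 4.03 RPM in Dicer-deficient cells (log2 difference 1.91 ± 0.40, n = 2 per group, limma FDR 0.465). Mir147 had 4.08 and 5.22 RPM in controls and 16.9 and 11.5 RPM after deletion (1.58 ± 0.37, limma FDR 0.465). Mir19b-2, which makes the same mature miRNA as Mir19b-1, had 2.92 and 5.68 RPM in controls and 9.32 and 7.58 RPM after deletion (1.02 ± 0.43, limma FDR 0.507). Mir19b-1 itself had 10.1 and 10.4 RPM in controls and 7.77 and 6.29 RPM after deletion, so the copies on chromosomes X and 14 lay on opposite sides of their controls.

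Among member sites in the Dicer line, the largest log2 difference below 0 was at Mir7-1, in an intron of Hnrnpk. This site is not in the Drosha table. It had 1.04 and 0.903 RPM in controls and 0.270 and 0.214 RPM (8 and 7 reads) in Dicer-deficient cells (-1.65 ± 0.63, n = 2 per group, limma FDR 0.485). In the p53-responsive family Mir34a had a log2 difference of -1.36, the 2 sites of Mir34b 0.39 and 0.38, and Mir34c 0.73, and none of these sites was called.

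No site of the miR-17-92 and miR-106a-363 clusters was called in the Dicer line. On chromosome 14, in Mir17hg, Mir19a (-1.21), Mir19b-1 (-0.55) and Mir92-1 (-0.94) had log2 differences below 0. On chromosome X, those of Mir19b-2 (1.02) and Mir92-2 (0.61) were above 0, and the difference between the clusters was not tested. Mir92-2 had 1.10 and 1.11 RPM in controls and 1.86 and 1.62 RPM after deletion. The 3 Dlk1-Dio3 member sites all had values above 0 (median 0.52), and the 4 let-7 and miR-98 member sites all had values below it (median -0.50).

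Whether the effects differed was tested with the interaction term over the 2595 sites in both tables. The Drosha effect was below the Dicer effect at 43 of the 47 shared member sites, with a median difference of -1.58 on the log2 scale, against -0.46 and 60.6% below 0 over all shared sites. The difference passed an FDR of 0.05 in limma at 5 member sites, all with the Drosha effect the lower, while 4.78% of all shared sites passed (44 lower, 1.7%, and 80 higher, 3.08%). The 5 were Mir124a-1 (difference -3.64 ± 0.48, FDR 0.0218), Mir496a (-3.89 ± 0.62, FDR 0.0232), Mir147 (-2.90 ± 0.46, FDR 0.0232), Mir19b-1 (-2.36 ± 0.45, FDR 0.0295) and Mirlet7a-1 (-2.36 ± 0.53, FDR 0.0467). These calls depended on the libraries used: 0 members passed without either Drosha-line control, without either Drosha-deficient library or without Dicer-deficient replicate 1, as did 0 of all 2595 shared sites in each case. Without Dicer-line control replicate 1, 18 members passed, beside 726 lower and 243 higher of all shared sites. Without Dicer-line control replicate 2, 4 members passed, beside 14 lower and 22 higher of all. Without Dicer-deficient replicate 2, 9 members passed, beside 425 lower and 85 higher of all. edgeR on whole reads called 4 of the 47, beside 27 lower and 52 higher of all.

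**Figure D5:**
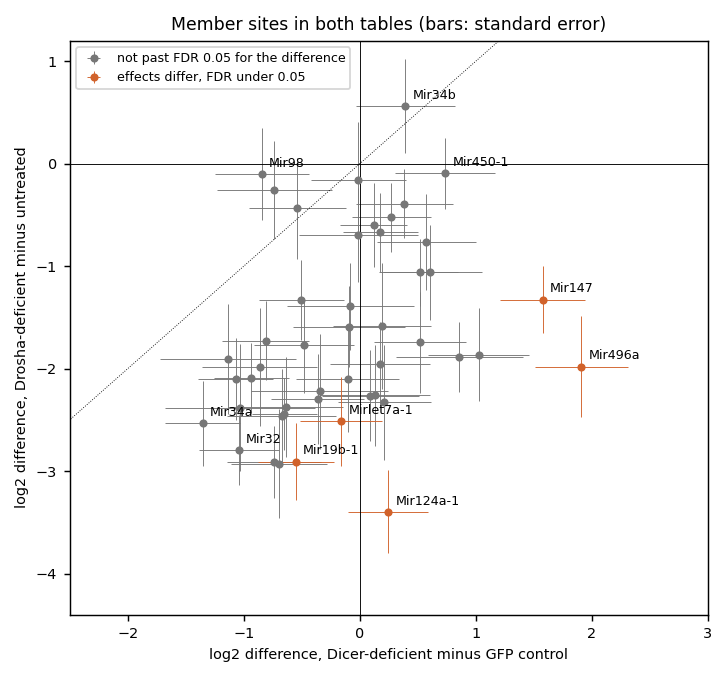
Log2 difference in the Drosha comparison (vertical axis) against that in the Dicer comparison (horizontal axis) for the 47 member sites in both tables; bars are standard errors and the dotted line marks equal effects. The 5 orange sites are those whose effects differed at an FDR under 0.05, and 43 of 47 sites lie below the dotted line.

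Mir124a-1 had 4.23 and 4.66 RPM in GFP controls and 5.47 and 5.10 RPM in Dicer-deficient cells (log2 difference 0.25 ± 0.35), where Drosha deletion had left 8.36% of control. Mirlet7a-1 had 4.20 and 4.78 RPM in GFP controls and 4.16 and 3.85 RPM after Dicer deletion (-0.16 ± 0.35). In the Drosha line it had 4.67 and 4.52 RPM in controls and 0.548 and 0.938 RPM after deletion. Mir496a had 1.85 and 1.78 RPM in Drosha-line controls and 0.355 and 0.417 RPM after Drosha deletion. At Mir496a and Mir147 the deficient libraries lay below both controls in the Drosha line and above both controls in the Dicer line.

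Control levels of the same site differed between the lines. Of the 47 shared sites, both Drosha-line controls were above both Dicer-line controls at 19, below them at 9 and overlapping at 19, with ratios of the mean RPM from 0.347 to 8.82. Mir147 and Mir210 were the higher in the Drosha line, with mean control RPM of 41 against 4.65 for Mir147 and 31.9 against 3.75 for Mir210. Mir296 was the higher in the Dicer line (100 against 34.8 RPM). These ratios were not tested, and the line, the viral transduction, the sort and the library preparation cannot be told apart. In bulk libraries, fewer cells of a type and less RNA per cell also cannot be told apart.

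In RNA-seq of polyadenylated RNA the 130 member miRNA genes had an authors' mean of -3.25 to 6.88 log2 CPM (median -2.20), and 13 of them were above 0. This scale is not divided by length, so short stem-loops and long genes cannot be ranked by it. The 5 highest values were at Mir6236 (6.88 log2 CPM), the host transcript Mir17hg (6.76), Mir703 (3.68), the host transcript Mir124a-1hg (3.32) and Mir5125 (2.91). A pile-up site was found for 22 of the 130, and Mir703 and Mir5125 were not among the genes with a site. Mir6236 had 2 sites in the Dicer table, with mean control levels of 1.04 and 0.783 RPM. Protein-coding genes that hold a member site on their strand had 29 values from 0.02 to 11.5 log2 CPM (median 6.27).

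Of the 9 host transcripts, Mir17hg and Mir124a-1hg were named by member sites in the Degradome-seq tables. Every site that names them lay at one of their miRNAs: Mir19a, Mir19b-1 and Mir92-1 in Mir17hg, and Mir124a-1 and Mir3078 in Mir124a-1hg. Mir3078 had 3.59 and 3.76 RPM in controls and 0.516 and 0.904 RPM after Drosha deletion (log2 difference -2.26 ± 0.45, limma FDR 0.000429). Mir124a-1, upstream on the same transcript, decreased as well.

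Of 28 listed genes of the miRNA pathway, 2 had sites in the Drosha table, Dgcr8 with 3 and Tut4 with 2, and 2 of these 5 sites decreased, beside 37.6% of all sites. Dgcr8 encodes the partner of Drosha, and its own messenger RNA is a known Drosha substrate. Its decreased site at chr16:18284563 had 11.9 and 9.75 RPM in controls and 1.61 and 2.71 RPM after Drosha deletion (-2.31 ± 0.39, limma FDR 0.000122). The decreased site of Tut4, a uridylyltransferase that acts on pre-let-7, had 14.1 and 14.6 RPM in controls and 4.42 and 4.52 RPM after deletion (-1.66 ± 0.35, limma FDR 0.000682). In the Dicer table Dgcr8, Tnrc6a and Tut4 had 4 sites, 0 of them called in limma, as for all sites of that table.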

How the data were processed

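Members and gene lists were chosen with earlier results of these data known. Degradome-seq libraries (2 per group) and RNA-seq libraries (3 per group) were grouped by their labels. The authors trimmed reads with Trimmomatic (version 0.38.0 in the submitters' processing notes) and aligned them with STAR to GRCm38. They describe keeping pile-up sites that a classifier trained on known miRNA cut sites found in both control replicates. Some deposited sites of each experiment had a mean control level of 0 RPM, so this cannot hold for every site. The deposited RPM values are read starts scaled to the mapped reads of each library, and the low values were whole reads within 0.01. The log2 CPM in the RNA-seq table is the authors' mean over all 6 libraries, and the authors' edgeR comparison columns (fold changes and p-values) were not used.

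The loci left out by name were Mirlet7d, Mir16-1, Mir22, Mir24-1, Mir25, Mir27b, Mir93, Mir106b, Mir142, Mir370, Mir410, Mir433, Mir485, Mir671, Mir700, Mir770 and Mir1306.

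From the RPM, log2(RPM + 0.1) was fitted with limma 3.58.1 (R 4.3.3, mean-variance trend), separately for each table and, for the interaction, over the sites in both, with Benjamini-Hochberg adjustment over all sites. A call needs an FDR under 0.05 and a log2 difference past 1.5, and a fold change on this scale understates the change of low sites. On counts simulated for the sites of either table, 200 sites outside the lowest levels were changed by folds well past the threshold, and 99.5% were recovered. Replicate differences in the real libraries had SDs over sites of 0.58 to 0.95 on the log2 scale. The simulation used a fixed dispersion that was not taken from them, and held no shared shifts of replicates or of scaling. It therefore cannot say how often changes near the threshold, at low sites or in the real Dicer libraries were missed. As an alternative, edgeR 4.0.16 (quasi-likelihood test) was run on the recovered reads, with libraries scaled to mapped reads as in limma. Other pseudocounts, scalings and filters, a replicate block and the omission of each library were also tried. Named in full were the 10 (Drosha) or 5 (Dicer) sites with the highest control level, the 5 largest decreases, the 3 smallest p-values in each direction for Dicer, and members past the interaction FDR. With 28682300 to 34547609 mapped reads per library, 3 reads are 0.0868 to 0.105 RPM. Mature miRNAs, genes and sequences came from RefSeq and GENCODE tables of GRCm38, and the table had no mature miRNA for Mir124a-1, Mir3078, Mir151 and Mir5099. Reads carry no molecular identifiers, so counting intervals (exact, from the binomial split of reads between groups) cover counting error only.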

Additional observations from a re-analysis of the deposited data

Results flagged for a closer look

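At 5 of the 47 member sites in both tables the Drosha effect and the Dicer effect differed in limma's interaction test at an FDR under 0.05, in each case with the Drosha effect the lower. The difference (Drosha effect minus Dicer effect, log2) was -3.64 at Mir124a-1, -3.89 at Mir496a, -2.90 at Mir147, -2.36 at Mir19b-1 and -2.36 at Mirlet7a-1. Mir496a and Mir147 had values above their controls in the Dicer line (1.91 and 1.58), where neither was called without a replicate block. Of all 2595 shared sites 4.78% differed by the same test.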

How the results depend on the processing

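In the Drosha comparison 42 member sites decreased. With a pseudocount of 0.5 RPM 24 did (953 of all sites, member median -1.38), and with each library centred on the median of all sites 24 did (871 of all sites decreased and 602 increased, member median -1.36). Without 1 library at a time 28 to 41 member sites decreased, and over all sites 907 (without control replicate 1) to 1519 decreased and 264 to 463 increased. In all, 17 members were called in each of 13 settings and 47 in at least 1. Centring turned the differences of Mir652 (0.0701), Mir196a-1 (0.20) and Mir677 (0.44) positive, edgeR that of Mir677 (0.14), and leaving out a library gave -1.12 to 0.81 for Mir677 and -1.33 to 0.14 for Mir138-1. In the Dicer comparison Mir138-1 had -0.0134 with uniquely mapped reads. Without 1 library at a time 0 to 1 of all Dicer sites decreased and 0 to 13 increased (the latter without Dicer-deficient replicate 2).

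The labels do not say whether same-numbered libraries share more than the number. The correlation of their replicate differences over sites was 0.132 in the Drosha table and 0.527 in the Dicer table. With the replicate number as a block 67 of all Dicer sites decreased and 119 increased, including 1 member that decreased (Mir7-1) and 2 that increased (Mir496a and Mir147), and the interaction was lower at 934 and higher at 386 of all sites and lower at 30 members. The block left 42 member sites decreased in the Drosha comparison.

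For the interaction, 79 of all sites were lower and 308 higher after centring (member median -1.0), 119 lower (12 members) with uniquely mapped reads, 2 lower (both members) and 1 higher without a mean-variance trend, and 27 lower and 52 higher in edgeR; the member median was -1.14 with a pseudocount of 0.5 RPM. Without 1 library at a time 0 to 726 of all sites were lower, 0 to 243 higher and 0 to 18 members lower. Counting exact matches, 31 Drosha-table sites, not 47, lay at the base after the 3p arm. The cause of these changes was not tested.

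Depth limits the low sites: in Drosha-deficient replicate 1, 6 members had 3 reads or fewer. With 2 libraries per group, effects near the fold threshold changed sides, and the pooled RNA-seq values allow no test.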
